A study of Rattus rattus with 23 samples.

Results

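Cytosolic ribosomal protein genes encode the protein parts of the ribosome that works outside the mitochondria. They were taken as every gene whose only platform symbol is Rpl or Rps followed by a digit, or Rplp0, Rplp1, Rplp2 or Rpsa, without the Rps6k kinases. Each gene was given the value of its probe set (the group of array probes that reports a transcript) with the highest mean signal. The rule found 50 genes on 57 probe sets, of 14218 genes with a single symbol on the array. By symbol, 13 of the 50 belong to the small subunit, 28 to the large subunit and 1, Rplp0, to the P stalk, and the other 8 are paralogs or pseudogenes. A further 36 probe sets carry several symbols with a ribosomal protein among them. They were kept apart, and their values are summed up without naming genes.

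Expression was measured on Affymetrix Rat230_2 arrays, 1 for each of 23 male Sprague-Dawley rats, in nasal respiratory epithelium taken by laser capture where the gas injures the tissue and it regenerates. Rats breathed 200 ppm hydrogen sulfide (H2S), a poison of mitochondrial respiration, or air, through the nose only, for 3 h a day. H2S was given on 1 day to the groups taken at 3 h (n = 4), 6 h (n = 3) and 24 h (n = 4) from the start, and on 5 days to the group taken at 144 h (n = 4). Air was given on 1 day to a group taken at 24 h (n = 4) and on 5 days to a group taken at 144 h (n = 4). The H2S groups of 3 h and 6 h have no air group of their own time, and their difference from air at 24 h includes the difference in time. The same 4 air animals of 24 h serve the 3 comparisons at 3 h, 6 h and 24 h. The labels give an age of 60 days for each animal and 10 weeks in the design text, and animals 6, 14 and 18 carry a 5-day treatment label that their titles do not give. No strain, allele or agent beyond these separates the groups.

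The ribosome is built from ribosomal RNA and about equal molar amounts of many small proteins, divided between a small subunit that reads the messenger RNA and a large subunit that joins amino acids. In mammals the messages of these proteins begin with a run of pyrimidines, and their translation is switched as a group by growth and nutrient signals through mTOR. They are abundant in nearly all cells, and some are known outside the ribosome, such as Rpl5 and Rpl11, which bind the p53 regulator Mdm2 when ribosome assembly is disturbed. Airway epithelium renews itself after injury by division of basal cells, which requires new ribosomes.

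The arrays had been scaled to nearly the same trimmed mean, 500.1 to 500.2, but their medians ran from 136 to 341. The array of animal 18 (air, 24 h) had the highest median and correlated with the others at a median of 0.41, and that of animal 22 (air, 144 h) had 265 and 0.69, against 0.82 to 0.90 for the other 21 arrays. The RNA integrity number, which falls as RNA breaks down, ran from 1.7 to 10 over the 19 animals that have one. Results are therefore given with and without animals 18 and 22 where these decide them. Of the markers of the labelled tissue, Epcam averaged 13.56, Krt18 13.42 and the ciliated cell gene Foxj1 9.67 on the scale of log2(signal + 16), which is used throughout and makes changes of dim genes look smaller than they are. Other respiratory epithelium markers ran from 6.02 (Cldn7) to 12.68 (Krt8), and other ciliated cell markers from 9.30 (Drc1) to 11.06 (Rsph1). The collagen gene Col1a1 (15.47) and the bone gene Ibsp (14.21), markers of other tissue, were also high. The olfactory neuron marker Omp averaged 6.31 and the club cell marker Scgb1a1 5.38, both low, and Scgb1a1 did not pass the filter described below. Other olfactory markers ran from 5.91 (Gng13) to 12.96 (Cyp2a3), with Gap43 at 9.64. Other secretory cell markers ran from 6.20 (Reg3g) to 16.14 (Bpifa1). In such bulk samples, fewer cells of a type and less RNA per cell cannot be told apart.

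Ribosomal protein genes gave some of the brightest signals of the array. On average over the 23 arrays, 34 of the 50 lay above the 95th percentile of their array and 26 above the 99th, while 5 lay under the 50th. Probes differ in their response, so these positions describe signals and do not rank transcripts. Rps6, the small subunit protein phosphorylated by S6 kinase downstream of mTOR, had signals between 23587 and 62511 on all arrays (lowest and highest). Rpl3, a core protein near the site of peptide bond formation, averaged 15.33 and Rps23, a protein of the decoding centre, 15.60. At the other end, Rpl28, Rpl30 and the paralogs Rps4x-ps1 and Rps4y2 were above the array median on 2, 1, 2 and 0 arrays. These 4 did not pass the filter on low signals, which asked for a signal above the array's own median on at least 3 arrays, so 46 of the 50 were tested. The paralog Rpl3l, known from human and mouse as the form of Rpl3 in skeletal and heart muscle, passed with 3 arrays. The small spread among tested members is part of what the comparisons rest on: their median SD within groups was 0.50, beside 0.701 for all probe sets kept.

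With all arrays, the mean level of the 50 genes differed between groups by less than it did between animals of a group. In H2S animals of 3 h it was 12.19, 12.47, 12.17 and 12.58 (animals 3 to 6), and in H2S animals of 6 h it was 12.04, 12.63 and 11.96 (animals 8 to 10). H2S animals of 24 h had 12.64, 12.16, 12.37 and 12.57 (animals 11 to 14), and H2S animals of 144 h had 12.31, 12.15, 12.52 and 12.17 (animals 23 to 26). Air animals of 24 h had 12.32, 12.54, 12.27 and 11.74 (animals 15 to 18), and air animals of 144 h had 12.06, 12.13, 12.38 and 12.54 (animals 19 to 22). All groups overlapped, and the lowest value of the study was that of animal 18. The group means ± SD were 12.35 ± 0.204 at 3 h, 12.21 ± 0.363 at 6 h, 12.44 ± 0.219 at 24 h and 12.29 ± 0.170 at 144 h of H2S, with 12.22 ± 0.341 in air at 24 h and 12.28 ± 0.222 in air at 144 h. With all arrays, the distance between the highest and the lowest group mean was therefore smaller than the pooled SD within groups, 0.256. Without animals 18 and 22, air animals averaged 12.38 ± 0.146 at 24 h (n = 3) and 12.19 ± 0.166 at 144 h (n = 3). The latter was then the lowest group mean, and the pooled SD was not computed without these animals.

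**Figure D1:**
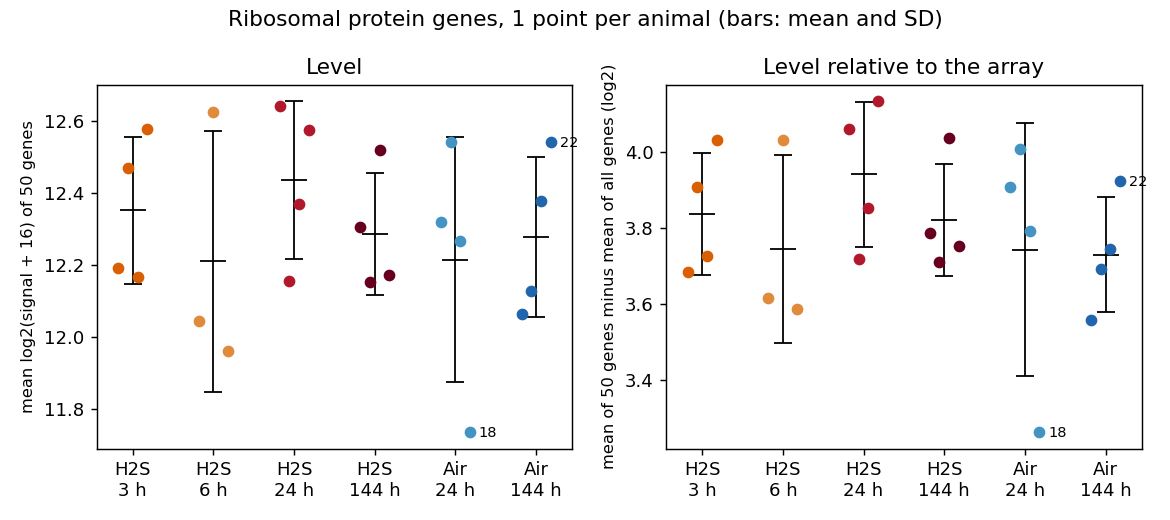
Mean log2(signal + 16) of the 50 ribosomal protein genes (left) and its distance from the array's own gene mean (right), 1 point per animal and group, with bars for the group mean and SD. All groups overlap on both scales, and animal 18 of the air group at 24 h lies lowest, at 11.74 on the left and 3.26 on the right.

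Measured against all genes of the same array, the picture was similar with all arrays. The members stood 3.84 ± 0.162 above the array's gene mean in H2S animals of 3 h, 3.74 ± 0.249 at 6 h, 3.94 ± 0.190 at 24 h and 3.82 ± 0.147 at 144 h, against 3.74 ± 0.332 in air animals of 24 h and 3.73 ± 0.152 in air animals of 144 h. Without animals 18 and 22, air animals stood at 3.90 ± 0.108 at 24 h and 3.66 ± 0.0966 at 144 h (n = 3 each). The 50 genes together made up 3.36%, 3.14%, 3.49% and 3.21% of the summed signal in H2S animals of 3 h, 6 h, 24 h and 144 h, against 3.03% in air animals of 24 h and 3.27% in air animals of 144 h (group means). Animal 18 was again lowest, with 1.90%.

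**Figure D2:**
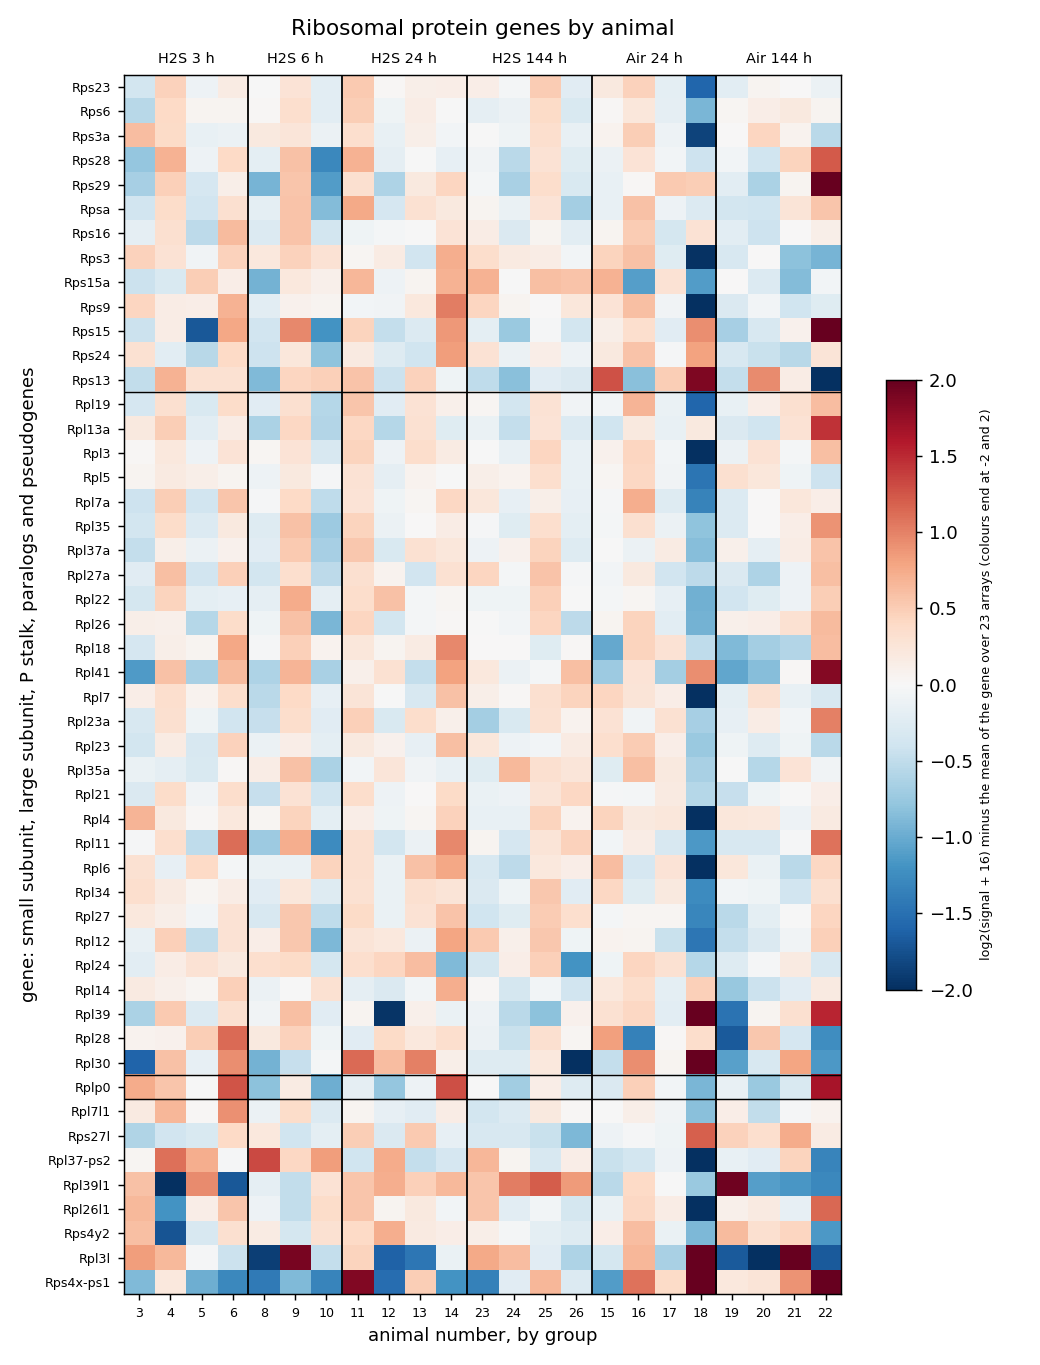
Deviation of each of the 50 genes (down the page, in blocks of small subunit, large subunit, P stalk, and paralogs and pseudogenes) from its own mean over 23 arrays, in each animal (across, by group), on the log2 scale with colours that end at -2 and 2. The column of animal 18 is the most strongly coloured, with most large subunit genes low and Rpl39 high, and no block of genes separates H2S columns from air columns.

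No ribosomal protein gene was called when all 6 groups were tested for any difference. In limma's moderated F test over all 19822 probe sets kept, 0 of the 46 tested members passed an adjusted p of 0.05, beside 0.0605% of all probe sets. A single member had an unadjusted p under 0.05, and the smallest adjusted p among members was 0.616. Here and below p was adjusted by Benjamini-Hochberg over all probe sets kept. With 1 array per animal, p measures the spread between these animals.

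At 3 h, the comparison asks how H2S animals sampled at the first time differed from air animals. Set against air at 24 h, 31 of the 46 members had positive changes in H2S animals of 3 h, which is 67.4% beside 55.4% of all probe sets, with a median change of 0.20 beside 0.09 for all. Limma called 0 of them (2 had an unadjusted p under 0.05), and 0.0807% of all probe sets. Large subunit genes had a median change of 0.24 and small subunit genes 0.13. Without animal 18, the members' median was -0.04, and 18 of 45 tested members were positive.

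The member with the smallest p at 3 h was Rpl37-ps2, listed by its symbol as a pseudogene of Rpl37, the zinc-binding large subunit protein. H2S animals of 3 h had 8.42, 9.49, 9.11 and 8.37, and air animals of 24 h had 7.94, 8.02, 8.29 and 6.07. The 4 H2S values lay above the 4 air values, the closest pair being 8.37 and 8.29, and the value of animal 18 was far below the other air animals. Its change was 1.27 (SE 0.465, adjusted p = 0.405), so it did not pass limma's test. Whether its probes also bind the message of its parent gene was not tested. Of the 46 members, 1 had all H2S values above all air values at 3 h and 0 had all below. Of all probe sets, 3.02% and 1.55% had.

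Rplp0, the protein at the base of the stalk that recruits elongation factors, had 12.65, 12.47, 11.89 and 13.17 in H2S animals of 3 h, against 11.62, 12.38, 11.86 and 11.001 in air animals of 24 h. Both groups spread over more than 1 log2 unit and overlapped, and the change was 0.83 (SE 0.491, limma, adjusted p = 0.571). Rpl7l1, a paralog of Rpl7 found in human precursors of the large subunit, had 10.56, 11.05, 10.41 and 11.30 in H2S animals of 3 h, against 10.37, 10.51, 10.32 and 9.54 in air animals of 24 h. In 3 of the 4 H2S animals it was above all air animals, the groups overlapped through animal 5, and the change was 0.64 (SE 0.296, limma, adjusted p = 0.496). Rps9, a small subunit protein near the messenger RNA entry, changed by 0.90 (SE 0.507, limma, adjusted p = 0.553), and animal 18, at 8.43, was more than 2 log2 units below every other animal in it.

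At 6 h, 28 of the 46 members had positive changes from air at 24 h, with a median of 0.09 beside 0.08 for all probe sets. Again 0 were called by limma (1 had an unadjusted p under 0.05), beside 0.00504% of all probe sets. The direction of this median rested on 1 animal on either side. It was -0.12 without animal 9, the H2S animal of 6 h with the highest level, and -0.15 without animal 18, when 7 of 45 members were positive. Rpl37-ps2 again had the smallest p, with 9.71, 8.79 and 9.21 in H2S animals of 6 h against the same 4 air animals, all of which lay at 8.29 or lower. The change was 1.66 (SE 0.502, limma, adjusted p = 0.781). Of the 46 members, 1 had all H2S values above all air values at 6 h and 0 had all below. Of all probe sets, 2.49% and 2.02% had. Rps24, a small subunit protein whose gene is mutated in some human Diamond-Blackfan anaemia, had 10.69, 11.33 and 10.30 in H2S animals of 6 h, against 11.30, 11.68, 11.09 and 11.90 in air animals of 24 h. These overlapped through animal 9 (11.33), and the change was -0.72 (SE 0.365, limma, adjusted p = 0.781).

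At 24 h, when both exposures were sampled at the same time, the members leaned furthest one way of the 4 comparisons with air. In H2S animals, 37 of 46 had positive changes against air animals (80.4%, beside 54.9% of all probe sets), with a median of 0.30 beside 0.07 for all. No member passed limma's test (0 had an unadjusted p under 0.05), and 0.0101% of all probe sets did. Of the 26 large subunit genes tested 24 were positive, and of the 13 small subunit genes 8 were. With animal 18 left out, 28 of 45 members were positive and the median was 0.05. After quantile normalization of the arrays, the median of the members was 0.07, beside 0.16 for all probe sets.

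Rpl4, which lines the exit tunnel for the growing protein, shows how a single array enters this lean. Its signals were 12050, 10382, 11345 and 15112 in H2S animals of 24 h, against 14946, 12535, 12840 and 934 in air animals of 24 h. The first 3 air animals lay within the range of the H2S animals, and animal 18 was over 10 times lower. The change was 0.81 (SE 0.561, limma, adjusted p = 0.661). Rpl3 and Rpl7, both large subunit core proteins, had the same shape: Rpl3 had 15.78, 15.23, 15.67 and 15.49 in H2S animals, against 15.41, 15.75, 15.27 and 12.79 in air animals. Rpl7 had 14.21, 13.94, 13.63 and 14.54 in H2S animals, against 14.37, 14.20, 14.08 and 11.46 in air animals. In neither gene did the other 3 air animals stand apart from the H2S animals.

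Rpl39, a very small protein of the exit tunnel, went the other way at 24 h. H2S animals had 9.82, 7.80, 9.86 and 9.64, and air animals had 10.06, 10.18, 9.55 and 11.91. Animal 12 was the lowest and animal 18 the highest of the study in it, and the other 6 animals lay between 9.55 and 10.18. The change was -1.15 (SE 0.572, limma, adjusted p = 0.612), the smallest p of a member at 24 h. Rpl12, a protein at the base of the stalk, had 12.88, 12.83, 12.50 and 13.41 in H2S animals, against 12.69, 12.67, 12.17 and 11.17 in air animals, with a change of 0.73 (SE 0.382, limma, adjusted p = 0.612). Rpl39l1, by its symbol a paralog of Rpl39, the human and mouse form of which is best known from testis, had no overlap between groups at 24 h. It had 8.15, 8.32, 8.08 and 8.25 in H2S animals, against 7.06, 7.99, 7.58 and 6.85 in air animals. Since Rpl39l1 spread widely in H2S animals of 3 h (4.63 to 8.54, SD 1.87) and air animals of 144 h (SD 1.57), the pooled error was large. Its change was 0.83 (SE 0.694, limma, adjusted p = 0.697). Of the 46 members, 1 had all H2S values above all air values at 24 h and 0 had all below. Of all probe sets, 2.22% and 1.57% had.

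**Figure D3:**
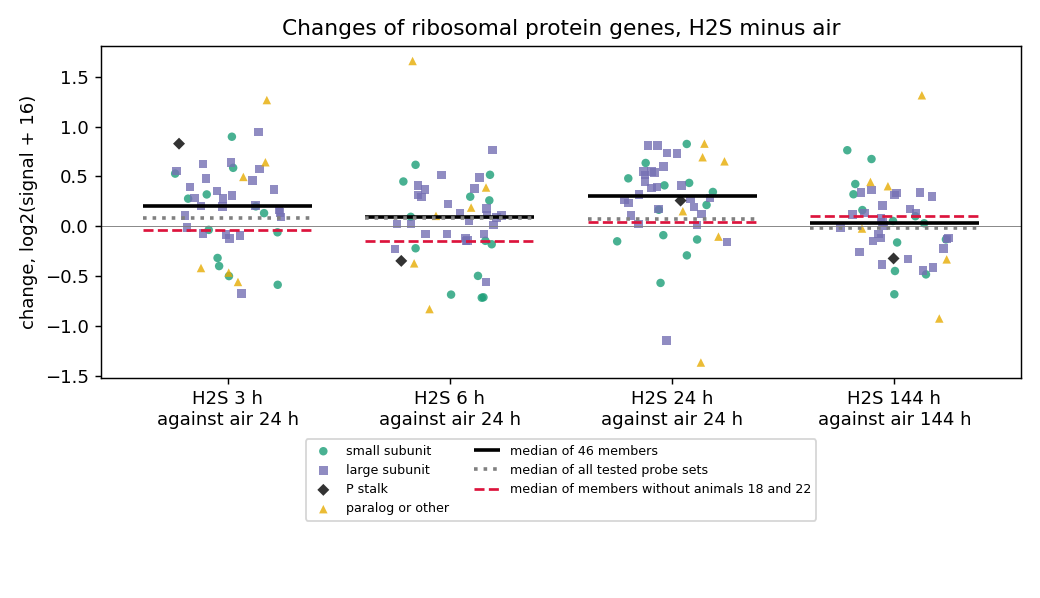
Change of each of the 46 tested members (points, by role) in the 4 comparisons of H2S with air, in log2(signal + 16), with lines for the median of the members, of all 19822 probe sets, and of the members without animals 18 and 22. The members' median is 0.20, 0.09, 0.30 and 0.03, and without animals 18 and 22 it is -0.04, -0.15, 0.05 and 0.10.

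After 5 days of exposure, members were evenly divided. In H2S animals of 144 h, 25 of 46 had positive changes against air animals of 144 h, with a median of 0.03 beside -0.02 for all probe sets. None passed limma's test (1 had an unadjusted p under 0.05), and 0% of all probe sets did. The sign of a median this small was opposite without animal 19, 20 or 25, with -0.05 as the lowest.

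Rps27l, a paralog of Rps27 known in human and mouse cells as a p53 target, had the smallest p. H2S animals of 144 h had 8.86, 8.86, 8.74 and 8.28, and air animals of 144 h had 9.64, 9.52, 9.93 and 9.35. Every H2S value lay below every air value, the closest pair being 8.86 and 9.35, and no animal was far from its own group. The change was -0.93 (SE 0.335, 95% interval -1.62 to -0.23), and limma's adjusted p was 0.584. In air animals of 24 h Rps27l had 9.09, 9.17, 9.09 and 10.37, where animal 18 was the high one, and its change at 24 h was -0.11. Of the other members at 144 h, Rps9 also had no overlap, with 11.83, 11.47, 11.41 and 11.63 in H2S animals against 11.12, 11.35, 11.01 and 11.17 in air animals. That difference was 0.42 (SE 0.507, limma, adjusted p = 0.870). The SD of Rps9 was 0.19 in these H2S animals and 0.14 in these air animals. Its SE rests on a spread shared by all 6 groups, with an SD of 1.64 in air animals of 24 h. Of the 46 members, 1 was wholly higher and 1 wholly lower at 144 h, while 2.50% and 3.43% of all probe sets were.

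Rps15a and Rps3, both small subunit proteins, had positive changes at 144 h of 0.76 (SE 0.407) and 0.67 (SE 0.417). Rps3, which sits at the messenger RNA entry and also acts in DNA repair, had 13.55, 13.39, 13.35 and 13.15 in H2S animals, against 12.89, 13.21, 12.38 and 12.27 in air animals. The groups overlapped through 1 air animal, and limma's adjusted p was 0.711. Rpl39l1 had 8.15, 8.63, 8.82 and 8.45 in H2S animals of 144 h, against 9.55, 6.51, 6.43 and 6.31 in air animals of 144 h. Animal 19 was the highest of all and the other 3 air animals were below every H2S animal, and the change was 1.31 (SE 0.694, limma, adjusted p = 0.671).

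Other central members were not called by limma against air at any time. Rps6 had changes of 0.20, 0.26, 0.34 and -0.16 at 3 h, 6 h, 24 h and 144 h, and Rpl5 had 0.37, 0.29, 0.32 and 0.08. Rpl11, the partner of Rpl5 and 5S RNA, had 0.58, -0.08, 0.54 and 0.01. Rpsa, a small subunit protein first described as a laminin receptor, had -0.04, -0.18, 0.21 and -0.13. Rpl13a, known in human monocytes for silencing inflammatory messages once released from the ribosome, had 0.20, -0.23, 0.02 and -0.41. Rpl22, a protein not required for translation as such, had 0.21, 0.41, 0.51 and 0.13, and Rpl41, a tiny peptide between the subunits, had -0.09, -0.14, 0.23 and 0.17. Rpl26, which binds the p53 message in human cells, had 0.17, 0.02, 0.17 and -0.33, and Rpl23, another protein that binds Mdm2, had -0.07, -0.12, 0.12 and 0.30. The first 3 changes of each gene share the air animals of 24 h.

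**Figure D4:**
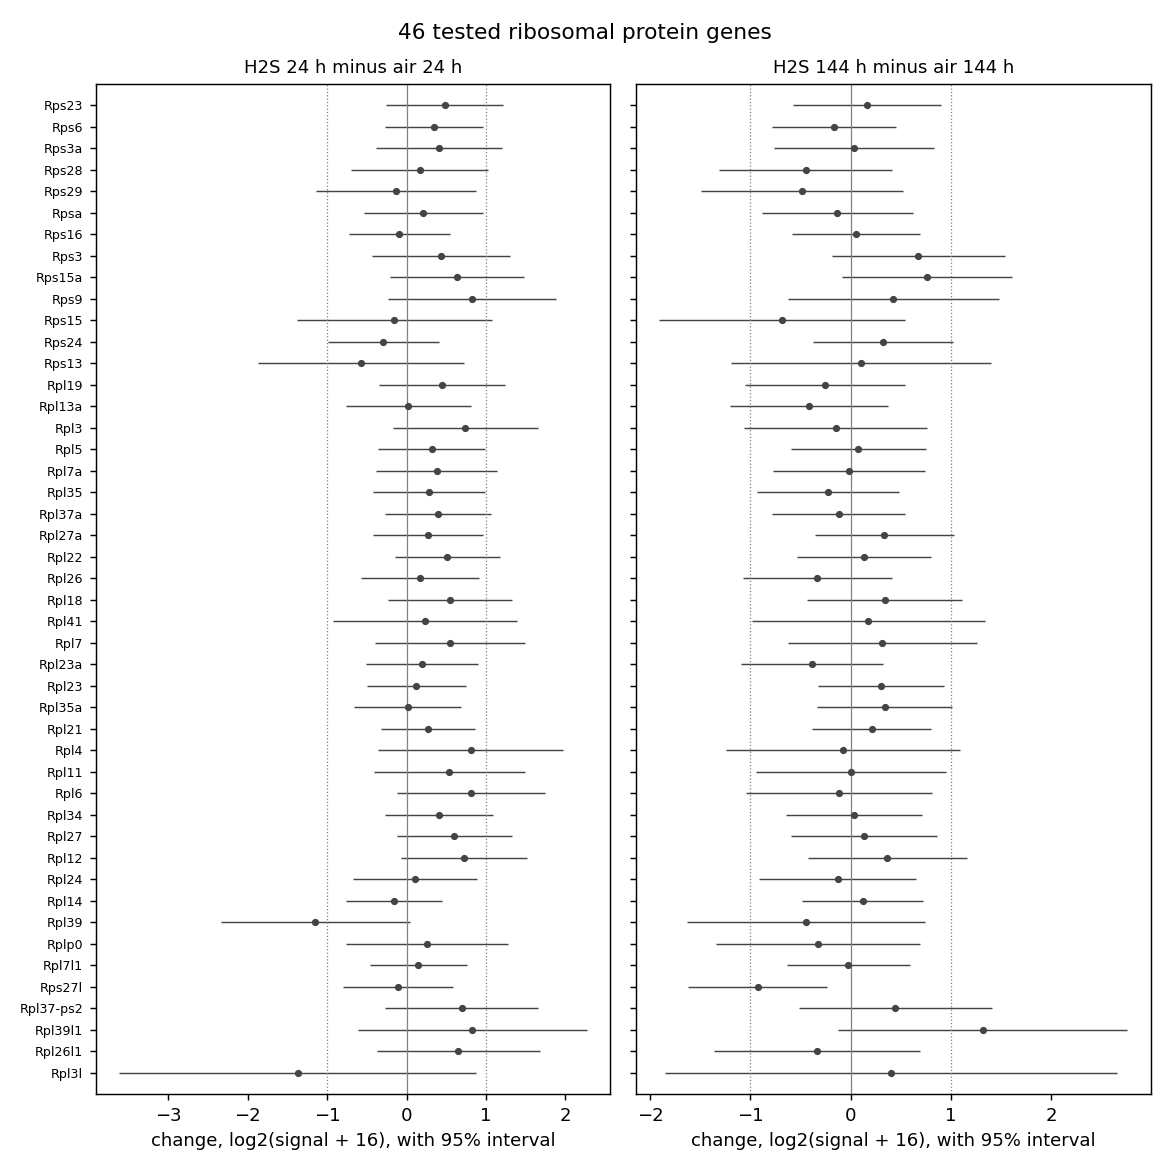
Change of each of the 46 tested members (down the page) with its 95% interval, at 24 h (left) and at 144 h (right), in log2(signal + 16), H2S minus air, with dotted lines at a 2-fold change either way. The intervals of 17 members at 24 h and 18 at 144 h stay within the dotted lines, and the one wholly beside zero is that of Rps27l at 144 h.

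How large a change these arrays leave possible can be read from the intervals. A 95% interval wholly within a 2-fold change either way was found for 15 of the 46 members at 3 h, 17 at 6 h, 17 at 24 h and 18 at 144 h. For the other members a change of 2-fold or more in some direction lay inside the interval. The median distance from the estimate to the end of the interval was 0.78 at 3 h, 24 h and 144 h, and 0.85 at 6 h.

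The difference between the effect after 5 days and that after 1 day was tested as an interaction. It was negative in 34 of the 46 members, with a median of -0.36 beside -0.09 for all probe sets. Limma's interaction test called 0 members (0 had an unadjusted p under 0.05) and 0% of all probe sets. Without animal 18 the median was -0.03, and after quantile normalization it was 0.03. The smallest p was that of Rps27l, at -0.82 (SE 0.474, limma, adjusted p = 0.946).

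Among H2S animals, the steps between times had no called member either. From 3 h to 6 h, 34 of 46 changes were negative, with a median of -0.11 beside -0.01 for all probe sets, and 0.00504% of all probe sets passed limma's test (1 member had an unadjusted p under 0.05). That member was Rplp0, which had 11.09, 12.08 and 10.93 in H2S animals of 6 h, against 12.65, 12.47, 11.89 and 13.17 in H2S animals of 3 h. The groups overlapped through animal 9, and the change was -1.18 (SE 0.531, 95% interval -2.28 to -0.08). Leaving out animal 9 gave a median over members of -0.38, and leaving out animal 10 gave 0.04. From 6 h to 24 h, 38 of 46 changes were positive (82.6%, beside 48.8% of all), with a median of 0.26 beside -0.01 for all probe sets. None passed (0 had an unadjusted p under 0.05), 0.0101% of all probe sets did, and the median was 0.08 without animal 10 and 0.43 without animal 9. Some lists of cell type markers moved the same way as the members in these steps, and others did not. From 6 h to 24 h all 8 ciliated cell genes tested and all 6 secretory cell genes had positive changes, with medians of 1.04 and 2.13, as had 8 of 9 respiratory epithelium genes, with 0.61. So had 4 of 4 basal cell genes (0.53) and 5 of 6 olfactory genes (0.93). Most genes of the remaining lists fell in this step. Positive were 2 of 8 leukocyte, 1 of 7 stroma and vessel, 1 of 5 cartilage and bone and 0 of 2 blood genes. Their medians were -0.53, -0.54, -0.40 and -0.91. From 3 h to 6 h none of the 8 ciliated, 6 secretory or 8 leukocyte genes and 1 of the 9 epithelium genes had a positive change, with medians of -1.44, -1.84, -0.73 and -0.84. Positive in that step were 1 of 4 basal (-0.32), 3 of 6 olfactory (-0.25) and 1 of 2 blood genes (0.34). Stroma and vessel genes (5 of 7, 0.34) and cartilage and bone genes (4 of 5, 0.73) mostly rose. The mean relative level of the 8 secretory genes ran from 1.30 to 2.09 in H2S animals of 3 h, -0.57 to 1.504 at 6 h and 0.81 to 2.42 at 24 h, and that of the 8 ciliated genes from 1.23 to 2.70, -0.28 to 1.05 and 0.30 to 2.40. None of these genes passed limma's test, and their part in the members' changes was not tested.

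A comparison of air at 144 h with air at 24 h shows how far controls of different days differ. Of 46 members, 33 had positive changes, with a median of 0.22 beside 0.08 for all probe sets. By limma 0 were called (0 had an unadjusted p under 0.05), as were 0% of all probe sets. Without animal 18 the median was -0.10, and without animals 18 and 22 it was -0.21, with 7 of 45 members positive. The median between the 2 control groups, 0.22, thus stood beside 0.20 for H2S at 3 h and 0.30 at 24 h, and its sign turned with 1 array. Rps13, a small subunit protein, had 7.30, 8.72, 7.94 and 4.89 in air animals of 144 h, against 9.06, 6.94, 8.28 and 9.65 in air animals of 24 h. Animals 22 and 18 were the lowest and the highest of the study in it, and the change was -1.27 (SE 0.624, limma, adjusted p = 0.600).

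Between animals of the same group, the members moved together. Over all pairs of the 46 tested members, the correlation of their deviations from the group means had a median of 0.38, beside 0.02 over all pairs of 11237 genes. The median was 0.49 among large subunit genes and 0.18 among small subunit genes. Without animals 18 and 22 these were 0.34 for all members, 0.41 for large and 0.31 for small subunit genes. Related lists, taken up below, also moved together to some degree. The median was 0.56 over 13 translation partners, 0.15 over 30 ribosome biogenesis genes and 0.13 over 73 mitochondrial ribosomal proteins. It was 0.19, 0.16 and 0.09 without animals 18 and 22. Over all arrays the translation partners thus stood above the members. Genes on an array share its RNA, scaling and labelling, so these are descriptions over 23 animals. Rpl19, Rpl7a and Rpl35 followed the others most, with median correlations to the other members of 0.654, 0.629 and 0.602, and Rpl12 came next with 0.597. Rps13, Rps27l and Rpl39l1 did not, with -0.28, -0.27 and -0.20.

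The level of the members was lower in animals whose Gapdh message had a larger excess of 3' over 5' signal, a sign of shorter or more degraded RNA copies. The log2 ratio of the Gapdh 3' to 5' probe sets ran from 1.26 (animal 9) to 4.44 (animal 18). Across 23 animals, Pearson's r between it and the mean level of the 50 genes was -0.54 and Spearman's rho -0.43, and r within groups was -0.65. Without animals 9 and 18, which lie farthest from the median ratio, r was -0.31 and within groups -0.26, so much of the relation rested on them. Without animals 18 and 22, r was -0.43 and within groups -0.72. Gapdh ratio and level come from the same arrays. Group means of the ratio were 2.52, 2.73, 2.91 and 2.59 in H2S animals of 3 h, 6 h, 24 h and 144 h, against 2.65 in air animals of 24 h and 1.97 in air animals of 144 h.

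**Figure D5:**
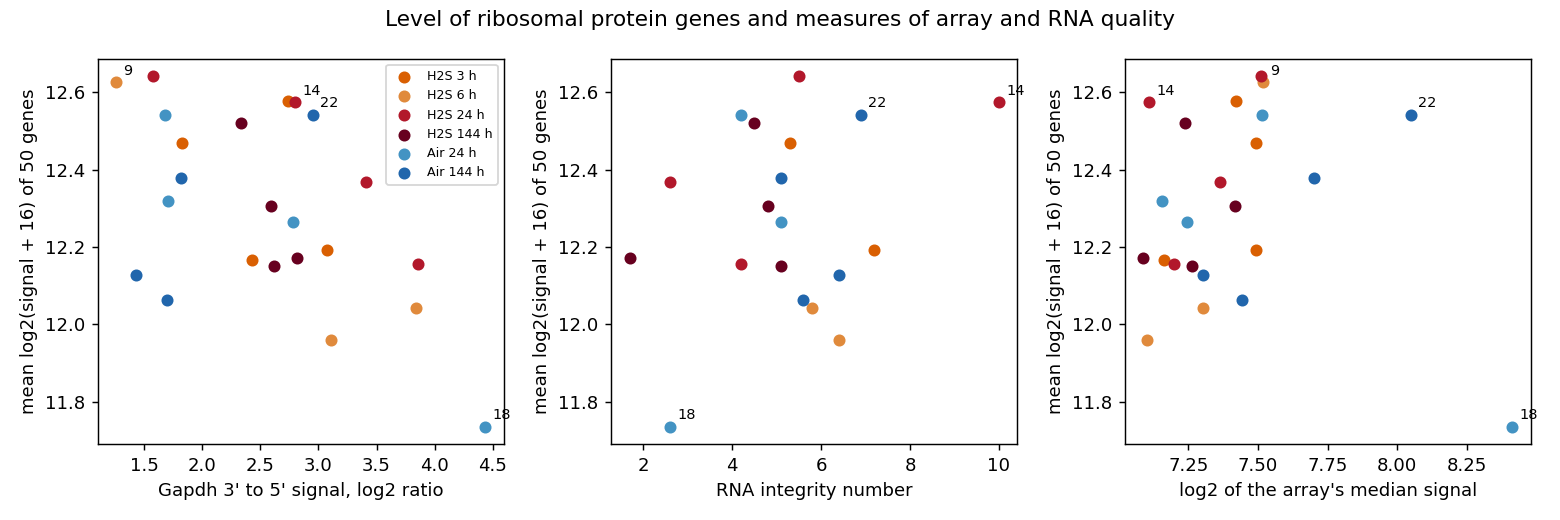
Mean log2(signal + 16) of the 50 genes against the Gapdh 3' to 5' log2 ratio (left), the RNA integrity number (middle, 19 animals) and the log2 of the array's median signal (right), 1 point per animal coloured by group. Animal 18 has the lowest level, 11.74, with the highest Gapdh ratio, 4.44, and animal 9 the lowest ratio, 1.26.

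Gene by gene, with a mean for each group in the fit, 40 of the 46 slopes on the Gapdh ratio were negative, with a median of -0.23 per unit of log2 ratio beside -0.06 for all probe sets. Limma called 0 (15 had an unadjusted p under 0.05), beside 0.636% of all probe sets. The 4 smallest p values belonged to Rpl7 at -0.53 (SE 0.131, limma, adjusted p = 0.0572), Rps23 at -0.39, Rpl5 at -0.35 and Rps3a at -0.39. With animals 18 and 22 left out, 40 of 45 slopes were negative and the median was -0.24. Of these 0 passed (17 had an unadjusted p under 0.05), beside 0.021% of all probe sets. Leaving out single animals gave 0 to 5 called members, with 5 of 45 called without animal 9, where 8.54% of all probe sets were called too.

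The RNA integrity number was also set against the level of the members. Its r with the level was 0.28 and rho 0.09 over 19 animals, and r was 0.09 without animals 14 and 26, which had the highest and the lowest number. Slopes were positive in 37 of 46 members, with a median of 0.06 per unit. Called by limma were 0 (1 had an unadjusted p under 0.05), beside 0% of all probe sets. Leaving out animals 18 and 22, 31 of 45 were positive and none passed (3 had an unadjusted p under 0.05), beside 0% of all. The largest slope by p was that of Rplp0, 0.22 per unit (SE 0.0957). The beta-actin 3' to 5' ratio gave positive slopes in 34 of 46 members, none called (1 had an unadjusted p under 0.05), beside 0% of all. Leaving out the same 2 animals, 34 of 45 were negative, none called (0 had an unadjusted p under 0.05), beside 0.00525% of all.

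The array's median signal was the measure with called slopes, and none of those members was called without animals 18 and 22, where Rpl3l did not pass the filter. Of 46 members, 13 passed limma's test, 5 positive and 8 negative, while 36.8% of all probe sets passed. Rpl4 (-1.92, adjusted p = 0.00349), Rpl7 (-1.53), Rps9 (-1.70), Rpl6 (-1.47), Rps3 (-1.32), Rpl37-ps2 (-1.41), Rpl5 (-0.85) and Rps3a (-0.99) had negative slopes per log2 unit of the median. Rpl39 (1.89), Rpl41 (1.65), Rps15 (1.73), Rpl13a (1.08) and Rpl3l (2.77) had positive ones. Rpl41 had 14.88 in animal 18 and 15.79 in animal 22, the highest values of the study, while Rpl4 had 9.89 in animal 18 and 13.61 in animal 22. Without animals 18 and 22, 1 of 45 members passed that had not passed with all arrays, Rpsa at 2.13 (SE 0.490, limma, adjusted p = 0.0469), beside 1.06% of all probe sets, and 35 slopes were positive. The r of the median signal with the level was -0.09 with all animals and 0.42 without these 2.

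The 36 probe sets with several symbols, all tested, were counted apart from the members. None passed limma's test in any of the 8 comparisons, where 0% to 0.0807% of all probe sets did. At 24 h 33 of the 36 had positive changes in H2S animals, with a median of 0.25, and at 144 h 20 had, with a median of 0.05. Of all probe sets, 54.9% and 48.4% had positive changes, with medians of 0.07 and -0.02. The comparison at 24 h rests on the air group that holds animal 18, where the mean level of the 36 was lowest, 12.16. On the Gapdh ratio 34 of the 36 slopes were negative, with a median of -0.22, and 0 were called. Of all probe sets 57.3% had negative slopes, with a median of -0.06, and 0.636% were called. On the array's median signal 7 of the 36 slopes were called by limma, beside 36.8% of all probe sets. Their mean level had r = -0.51 with the Gapdh ratio over 23 animals, which share these arrays with the members.

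Several genes have further probe sets, and these did not always follow the value used. The second probe set of Rpl7 followed it, with r = 0.87 between deviations from the group means. Those of Rpsa had 0.40 and 0.73, that of Rpl14 had 0.16, that of Rpl7l1 had 0.01 and that of Rpl3 had -0.03. That of Rps24 ran against it, at -0.53. Each further probe set is dimmer by the rule that chose the brightest, and the gaps ran from 1.52 (Rpl7l1) to 4.71 (Rpl3) log2 units. Which of them report the same transcript was not tested.

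Genes that work with the cytosolic ribosome, from lists chosen with earlier results of these data known, gave 1 call. Among 30 ribosome biogenesis genes, 25 had positive changes at 3 h, with a median of 0.35. Of all probe sets 55.4% had, with a median of 0.09. Limma called 1 of the 30 at 3 h and 0.0807% of all probe sets. The call was Mrto4, a nucleolar protein that holds the place of Rplp0 on precursors of the large subunit until the stalk is built. It had 9.48, 9.56, 8.95 and 10.00 in H2S animals of 3 h, against 8.14, 7.84, 7.26 and 5.39 in air animals of 24 h. All 4 H2S animals lay above all 4 air animals, and the change was 2.34 (SE 0.449, limma, adjusted p = 0.0419). Without animals 18 and 22 it was 1.75 (SE 0.283, limma, adjusted p = 0.0109). Mrto4 also had 8.91, 9.05 and 8.81 in H2S animals of 6 h and 8.72, 9.07, 8.78 and 9.24 in H2S animals of 24 h, all above the air animals of 24 h, and did not pass at those times (limma, adjusted p = 0.781 and 0.352). At 144 h it had 8.23, 8.07, 8.61 and 8.80 in H2S animals, against 8.32, 8.16, 8.74 and 9.57 in air animals, which overlapped. Air animals of 144 h were also higher in Mrto4 than air animals of 24 h, by 1.54 (SE 0.449, limma, adjusted p = 0.542). They overlapped with H2S animals of 3 h through animal 22 (9.57). The next by p at 3 h was Wdr12, part of the PeBoW complex that processes the large subunit, at 1.72 (SE 0.473, limma, adjusted p = 0.250). At 6 h, 24 h and 144 h none of the 30 passed, with medians of 0.07, 0.13 and 0.03. Among 13 translation partners none passed at any time, and 12 had positive changes at 24 h, with a median of 0.35. Elongation factor Eef2 had the second smallest p of these at 24 h, at 1.31 (SE 0.848, limma, adjusted p = 0.638). Of 73 mitochondrial ribosomal proteins, which serve the other ribosome of the cell, none passed against air. At 24 h 62 of them had positive changes, with a median of 0.47, beside 37 of 46 and 0.30 for the cytosolic set. Of all probe sets 54.9% had positive changes at 24 h, with a median of 0.07. The counts and medians of these 3 lists at 3 h, 6 h and 24 h also rest on the air group that holds animal 18. That animal had the lowest mean relative level of the study on each. It was 0.89 for biogenesis genes, 2.20 for translation partners and 0.62 for mitochondrial ribosomal proteins.

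Of 9 lists of cell type markers, that of white blood cells had the highest correlation with the ribosomal genes between animals of a group over all arrays. The mean level of 9 leukocyte genes, relative to the array, correlated within groups at 0.58 with the relative level of the members and at -0.56 with the Gapdh ratio (23 animals, and 0.43 and -0.60 without animals 18 and 22). That leukocyte level ran from 1.74 to 3.25 in H2S animals of 3 h, 0.49 to 3.12 at 6 h, 1.05 to 1.27 at 24 h and 0.96 to 2.01 at 144 h, against 0.36 to 2.77 in air animals of 24 h and 0.71 to 1.80 in air animals of 144 h. Of the 9, 8 passed the filter on low signals, with Cd74 averaging 12.93 and the pan-leukocyte gene Ptprc 9.24, and Tyrobp, at 7.05, did not. Without animals 18 and 22 the secretory list had the highest, 0.46 with the members and -0.42 with the Gapdh ratio, where all arrays gave 0.28 and -0.09. The list of stroma and vessel genes had 0.41 with the members over all arrays and 0.18 without these 2, and the other lists ran from -0.37 (blood) to 0.28 (ciliated cells) over all arrays. Of the 8 leukocyte genes tested, 8, 6, 2 and 4 had positive changes against air at 3 h, 6 h, 24 h and 144 h. Their medians were 0.89, 0.28, -0.25 and 0.05. Of the 9 respiratory epithelium genes 8, 6, 9 and 6 had (0.80, 0.15, 0.52 and 0.38). Of the 8 ciliated cell genes 7, 1, 7 and 8 had (0.86, -0.58, 0.47 and 1.05). All 4 basal cell genes had at each of the 4 times (1.34, 0.68, 1.09 and 1.23). Secretory cell genes had 5, 1, 4 and 2 positive of 6 tested (0.68, -1.01, 0.84 and -0.22). Olfactory genes had 1, 2, 4 and 3 of 6 (-0.61, -0.76, 0.33 and 0.02). Stroma and vessel genes had 3, 4, 3 and 1 of 7 (-0.07, 0.30, -0.17 and -0.66). Cartilage and bone genes had 1, 3, 1 and 1 of 5 (-0.35, 0.09, -0.25 and -1.59). Blood genes had 1, 2, 1 and 2 of 2 (0.42, 0.76, -0.15 and 0.22). Of all probe sets, 55.4%, 55.0%, 54.9% and 48.4% had positive changes. Changes at 3 h, 6 h and 24 h rest on the air group that holds animal 18. None of the genes on the 9 lists was called by limma, and their part in the level of the members was not tested.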

How the data were processed

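The deposited values are intensity, the linear signal of each probe set. The submitters' processing notes name GCOS 1.0, with its options not given in the sources used. Per the labels, RNA was isolated with PicoPure and amplified in 2 rounds with RiboAmp OA before labelling. The trimmed mean (2% off each end) lay near 500 on each array, as after a scaling of arrays. How many arrays a group has limits the precision.

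Here log2(signal + 16) was fitted with limma 3.58.1 in R 4.3.3 (lmFit, eBayes, 1 mean per group, 23 arrays, two-sided). Probe sets above their array's median on at least 3 arrays were kept, 19822 of 31099, without 57 control probe sets. P was adjusted by Benjamini-Hochberg over these, with a threshold of 0.05. Slopes on quality measures were fitted beside group means. Symbols came from the platform's probe table. The fit was tested on simulated data.

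Named genes were 27 fixed symbols (17 are members), called members or the 4 with the smallest p in each fit, extremes of level and spread, members with further probe sets, paralogs, and the 2 smallest p of each list. Members and lists were chosen with earlier results of these data known, and Rpl19 and Rpl7a were also described by their correlations after these were seen. Other settings were pseudocounts 1 and 64, quantile normalization, median centring, the filter dropped or raised to the 75th percentile, array weights, the mean of a gene's probe sets, only the groups compared, RNA integrity as covariate or with a minimum of 3, slopes with no group term, and leaving out animals 18 and 22, animals 6, 14 and 18, or each animal in turn. The 19 arrays with a known RNA integrity were also fitted without it, a setting added after seeing the data.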

Additional observations from a re-analysis of the deposited data

Results flagged for a closer look

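The 40 named members and their mean level, on both scales of the report, were looked at in the 5 groups of 4 animals. H2S animals of 6 h, with 3, were not tested. In 12 of 210 such sets an animal stood far from the other 3, which is 5.71%. Chance alone marks about 1 in 20 of independent sets chosen without regard to their values. The 40 share arrays, and some were named for their spread or small p in these data, so the share cannot be judged against that rate. Of the 12, 6 were animal 18 among air animals of 24 h. It was low for Rpl27 at 11.51 (others 12.77 to 12.85), Rpl3 at 12.79 (others 15.27 to 15.75), Rpl37-ps2 at 6.07 (others 7.94 to 8.29), Rpl4 at 9.89 (others 13.62 to 13.87) and Rpl7 at 11.46 (others 14.08 to 14.37). It was high for Rps27l at 10.37 (others 9.09 to 9.17).

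Among H2S animals of 24 h, animal 12 was high for Rpl37-ps2 at 9.13 (others 7.91 to 8.05) and low for Rpl39 at 7.80 (others 9.64 to 9.86). Among H2S animals of 144 h, animal 25 was high for Rpl22 at 14.87 (others 14.31 to 14.39). Among air animals of 144 h, animal 19 was high for Rpl39l1 at 9.55 (others 6.31 to 6.51). In the same group animal 21 was high for the muscle paralog Rpl3l at 10.77 (others 4.31 to 4.72) and low for Rpl4 at 13.33 (others 13.61 to 13.66).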

How the results depend on the processing

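Under every setting run, 0 members were called in the 8 comparisons and in the F test. The medians over members did move. At 3 h the median was -0.0913 without animals 6, 14 and 18. At 6 h it was -0.17 after quantile normalization, 0.35 with median centring, -0.18 under array weights and -0.20 with RNA integrity as covariate. At 24 h it was 0.57 with median centring and 0.0413 without animals 6, 14 and 18, and at 144 h it was 0.37 with median centring. Median centring alone shifted the median of all probe sets to 0.27, 0.34, 0.34 and 0.32 at 3 h, 6 h, 24 h and 144 h. The interaction had 0.0257 after quantile normalization, 0.0621 without animals 18 and 22, -0.0447 without RNA integrity numbers under 3, 0.0670 without animals 6, 14 and 18, and -0.0841 with array weights. Air at 144 h against air at 24 h had -0.19 after quantile normalization, -0.21 without animals 18 and 22, -0.10 without RNA integrity numbers under 3, -0.10 without animals 6, 14 and 18, and -0.12 with array weights. Leaving out each animal in turn gave -0.50 to -0.0291 for the interaction, -0.38 to 0.0392 for H2S at 6 h against 3 h, and -0.10 to 0.32 for air. It gave 0 to 5 called slopes on the Gapdh ratio (5 without animal 9, beside 8.54% of all probe sets, and 2 without animal 11, beside 4.06%), and on the array median 7 to 15 called slopes with medians of -0.31 to 0.76, where leaving out animal 18 gave the 7, beside 10.4% of all probe sets, and the 0.76, and leaving out animal 14 gave the 15, beside 37.8%. The slope on the array median had 27 called members, beside 50.6% of all probe sets, and a median of -1.08 with median centring, and 1 called, beside 1.06%, and 0.74 without animals 18 and 22. The sign of the median held in all settings at 24 h, for H2S at 24 h against 6 h, and for slopes on the RNA integrity number and the Gapdh ratio. It was opposite in 5 of 22 settings at 3 h, 9 of 21 at 6 h, 4 of 22 at 144 h, 3 of 30 for the interaction, 1 of 21 for H2S at 6 h against 3 h and 6 of 22 for air. The causes of these moves were not tested. No paired analysis was possible because animals carry numbers of their own and no group shares one with another. Where signals are near the array's median, as for Rpl3l and Rps13, values are least reliable.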
